A study of Homo sapiens with 6 samples.

Results

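The genes described here were the small non-coding RNAs of the nucleus, nucleolus and cytoplasm that the deposited count table typed as snoRNA, scaRNA, snRNA or misc_RNA. They were chosen by a mean raw count of at least 10 over the 6 libraries, which 53 of the 782 listed genes of these 4 types reached, out of 29889 genes in all. The 53 comprised 38 of 237 snoRNAs, 1 of 17 scaRNAs, 6 of 155 snRNAs and 8 of 373 misc_RNAs. The values that chose them were the mean counts over both groups, so their abundance is a description. The rule did not use the group labels. Even so, VTRNA1-3, SNORD35A and SNORD87 passed only through their CELF6-OE counts, and RNU5A-1 only through its Control counts. The members just inside the limit were SNORD35A with a mean count of 10.5, SNORD87 with 10.7, and RNU5A-1 and SNORA52 with 10.8 each. The genes just outside it were SNORD65 with 9.83, SNORA63 with 9.50 and SNORD38B with 9.17.

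Most of these RNAs work inside ribonucleoprotein particles. Box C/D and box H/ACA snoRNAs guide methylation and pseudouridylation of ribosomal RNA and are usually cut out of introns of a host gene, while the spliceosomal snRNAs and U3 (SNORD3A) have promoters of their own. RNA polymerase III makes 7SK, which holds the transcription elongation factor P-TEFb inactive together with HEXIM proteins, 7SL, the RNA scaffold of the signal recognition particle, and the Y and vault RNAs. Mature forms of these RNAs carry no poly(A) tail, and the libraries were made from RNA captured by poly(A).

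The cells were A549, a human lung adenocarcinoma line, transfected with Lipofectamine 2000. The CELF6-OE group (3 libraries) received the pIRES-hrGFP-1a plasmid carrying CELF6, an RNA-binding protein of the CELF family, and the Control group (3 libraries) received the plasmid without the insert. Cells of both groups were harvested at 48 h, and the methods call the 3 samples of a group biological replicates without saying more of their cultures, so the p-values measure the spread between these samples. The comparison asked how overexpression of CELF6 moved the counts on these RNAs. Of the 53 members, 36 were shorter than the read length given in the methods, before adaptors were removed. Whether their counts and FPKM came from the mature RNA or from longer transcripts was not tested.

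The libraries held 33748328 to 35413404 counts in CELF6-OE and 36422617 to 37920700 in Control. CELF6 itself had 18646, 20789 and 11571 counts in CELF6-OE replicates 1, 2 and 3 and 0 in each Control library. The 5 epithelial markers tested, KRT8 and KRT18 the most abundant of them, summed to 261185 to 305206 counts in CELF6-OE and 374509 to 425448 in Control, all were below 0 in log2 fold change, and CDH1 was called lower (-1.62). The alveolar type II markers, 7 in number, summed to 32 to 38 counts against 55 to 78, with SFTPC at 2 or fewer. The 7 listed leukocyte markers summed to 291 to 381 against 333 to 388, with PTPRC at 2 or fewer. Most of these counts came from CD14, at 225 to 310 counts and not called, and from ITGAM, at 54 to 62 counts in CELF6-OE against 87 to 109 in Control and called lower (log2 fold change -0.73, edgeR adjusted p = 0.0120). The 7 listed fibroblast and endothelial markers summed to 149 to 161 against 199 to 220. Their part in the results was not tested. As in any bulk sample, fewer cells of a type and less RNA per cell cannot be told apart. Over all genes tested CELF6-OE replicates 1 and 3 were the most alike pair of libraries of the same group (chi-square per degree of freedom 7.70), and Control replicates 1 and 3 the least alike (29.5). CELF6-OE replicate 1 stood apart from its group in the sums of the misc_RNA and snRNA members. Summed over the 8 misc_RNA members, it had a CPM (the count scaled to a common library total) of 74.6, against 37.5 and 44.3 in CELF6-OE replicates 2 and 3 and 75.7, 74.6 and 102 in Control replicates 1, 2 and 3. Its CELF6 count lay between those of the other CELF6-OE libraries. Results that rest on the abundant polymerase III RNAs are therefore given with and without this library, beside the smallest change seen when any other library was left out.

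The differences turned on a handful of RNAs, and the sequences of most of them are shown on GRCh38 with positions counted from 1 at the 5′ end. The U4 snRNA base-pairs with U6 in the spliceosome, and its copies RNU4-1 (chr12:120293097-120293237, minus strand) and RNU4-2 (chr12:120291763-120291903, minus strand) were both lower in CELF6-OE. Capitals mark the 4 of 141 bases at which they differ, which are C37T, G88A, C99A and C113T with the base of RNU4-1 first.
RNU4-1: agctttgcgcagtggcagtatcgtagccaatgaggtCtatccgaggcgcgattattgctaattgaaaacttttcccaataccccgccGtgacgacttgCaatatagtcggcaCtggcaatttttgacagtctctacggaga
RNU4-2: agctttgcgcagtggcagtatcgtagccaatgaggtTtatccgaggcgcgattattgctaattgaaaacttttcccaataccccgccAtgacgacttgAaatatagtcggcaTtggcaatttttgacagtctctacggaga

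RNVU1-31, a variant U1 snRNA gene deposited under the symbol U1 (chr1:145465617-145465780, minus strand), was the third snRNA that was lower. Capitals mark ACTTACCT, the bases with which U1 pairs to 5′ splice sites.
RNVU1-31: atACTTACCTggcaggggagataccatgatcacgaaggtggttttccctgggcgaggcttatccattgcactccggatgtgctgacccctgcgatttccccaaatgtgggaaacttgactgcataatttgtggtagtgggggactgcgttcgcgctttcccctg

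Of 7SK (RN7SK) the first 100 of 331 bases are shown (chr6:52995620-52995719, plus strand), which include most of the 5′ hairpin bound by HEXIM proteins. Capitals mark GATC, found at positions 13, 42 and 64. Of U3 (SNORD3A), which guides early cleavages of the ribosomal RNA precursor, the first 217 bases are shown (chr17:19188016-19188232, plus strand), with TGATGA and the last CTGA, letters of the C and D boxes, in capitals. Over these bases SNORD3A differed from SNORD3B-1 only by A78C. The annotated SNORD3A gene is longer, with 699 bases.
RN7SK: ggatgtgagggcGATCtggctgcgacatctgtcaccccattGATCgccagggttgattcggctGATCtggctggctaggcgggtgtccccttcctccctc
SNORD3A: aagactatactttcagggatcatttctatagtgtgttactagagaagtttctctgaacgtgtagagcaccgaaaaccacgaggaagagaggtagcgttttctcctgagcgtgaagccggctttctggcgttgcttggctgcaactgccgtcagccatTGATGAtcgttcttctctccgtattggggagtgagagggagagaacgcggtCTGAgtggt

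The member that was higher was VTRNA1-3, one of the small RNAs of the vault particle (chr5:140726158-140726246, plus strand). Capitals mark TAGCNNAG and GTTCGANNC, letters of the internal promoter boxes A and B of polymerase III genes.
VTRNA1-3: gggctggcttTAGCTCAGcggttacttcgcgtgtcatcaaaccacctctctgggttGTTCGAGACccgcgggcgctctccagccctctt

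Counts were tested over all 15762 genes with a mean count of at least 10 by edgeR's quasi-likelihood test, and a call needed a fold change of 1.5 or more together with a Benjamini-Hochberg adjusted p under 0.05. Of the 53 members, 6 were called lower in CELF6-OE (11.3%) and 1 higher (1.89%), where 5.81% and 1.31% of all genes tested were called. With p under 0.01 and the same fold change, the counts were again 6 and 1. The CPM of single genes, unlike that of class sums, used library totals adjusted by edgeR's TMM scaling. The 3 CELF6-OE CPM values lay below all 3 Control values in 7 members (background 20.0%) and above them in 8 members (background 17.9%). The called members were not the bulk of the class. The median log2 fold change was 0.25 over the members and 0.01 over all genes tested, and 39 of the 53 members were above 0. The 39 include VTRNA1-3, SNORD35A and SNORD87, which reached the count limit only through their CELF6-OE counts. A typical member was measured less precisely than a typical gene: the median standard error was 0.31 on the log2 scale against 0.11, and the median mean count 21.3 against 458.

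**Figure D1:**
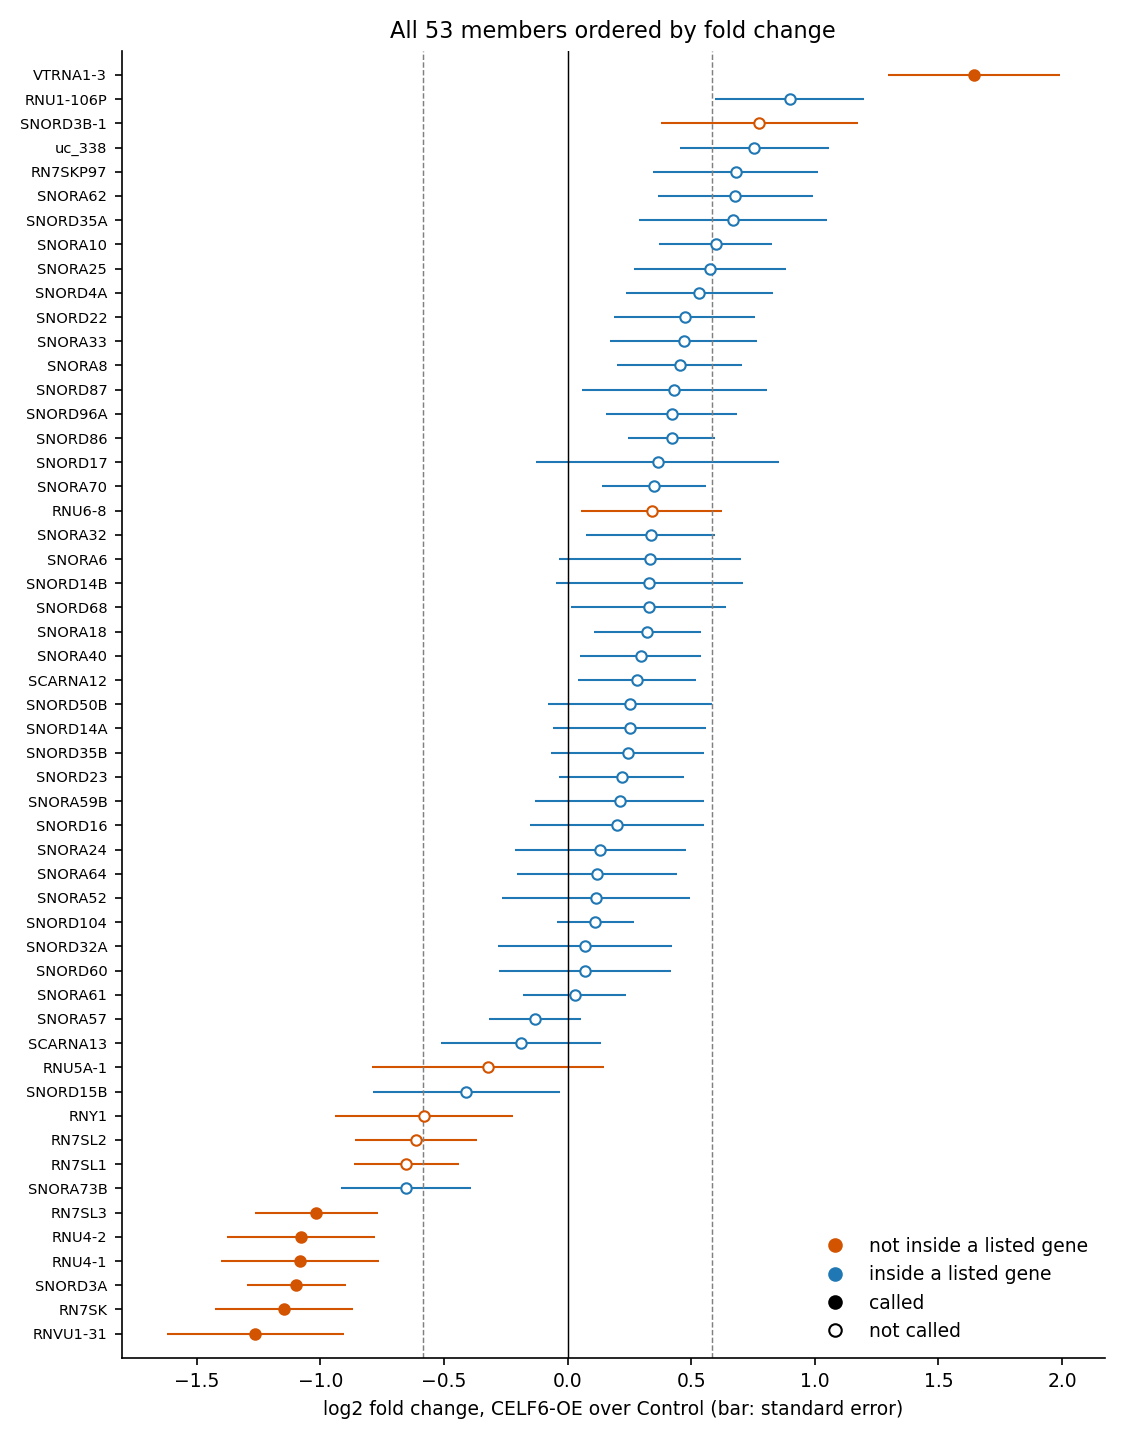
Log2 fold change of each of the 53 RNAs, CELF6-OE over Control, with its standard error as the bar and dashed lines at a fold change of 1.5. Filled points are the 6 RNAs called lower and the 1 called higher, all of them outside other listed genes (orange), while 36 of the 40 RNAs inside a listed gene (blue) lie above 0.

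7SK fell in CELF6-OE. In CELF6-OE replicates 1, 2 and 3 the RN7SK counts were 430, 148 and 240, against 617, 602 and 695 in Control. All 3 CELF6-OE values lay below all Control values, and replicate 1 was the nearest to them. The level in FPKM, the count relative to transcript length and library total, was 22.8 ± 12.0 in CELF6-OE and 49.5 ± 3.56 in Control (SD over 3 libraries each), and the log2 fold change was -1.15 with a standard error of 0.28 (edgeR adjusted p = 0.0166). The change was -1.64 without CELF6-OE replicate 1 and, at its smallest, -0.84 without CELF6-OE replicate 2, and the call was lost in DESeq2 (adjusted p = 0.0607) and with robust estimation (adjusted p = 0.0834). RN7SKP97, a 7SK pseudogene inside the ASPH gene, had 24, 15 and 22 counts against 9, 16 and 15 and was not called (log2 fold change 0.68, adjusted p = 0.183).

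The 3 copies of 7SL all had negative fold changes, but only the copy with the fewest counts was called. RN7SL1 and RN7SL2 had the highest levels per length of all members. RPS29, a ribosomal protein gene, lies on the opposite strand of RN7SL1, and how strand was used in counting is not given in the sources used here, so reads of the pair cannot be told apart. The counts of RN7SL3, deposited under the symbol Metazoa_SRP, were 218, 115 and 116 under CELF6-OE against 262, 283 and 411 in Control, with no overlap (log2 fold change -1.02, standard error 0.25, adjusted p = 0.0179). RN7SL3 was no longer called without CELF6-OE replicate 2 (adjusted p = 0.0906) or replicate 3 (adjusted p = 0.0546). RN7SL1 had 1143, 674 and 690 counts against 1119, 1251 and 1779. Here CELF6-OE replicate 1 lay within the Control values, and the log2 fold change of -0.65 (standard error 0.21) missed the threshold with an adjusted p of 0.0559. RN7SL2, taken by its identifier ENSG00000274012 and deposited under the same symbol, had 709, 327 and 381 counts against 711, 644 and 928 (log2 fold change -0.61, adjusted p = 0.111). Without CELF6-OE replicate 1 all 3 copies were called, with log2 fold changes of -0.95 for RN7SL1, -1.03 for RN7SL2 and -1.40 for RN7SL3. At their smallest over the libraries left out, the values were -0.42 for RN7SL1 and -0.78 for RN7SL3 without Control replicate 3 and -0.39 for RN7SL2 without CELF6-OE replicate 2. Per length, RN7SL1 stood at 119 ± 28.2 FPKM in Control, RN7SL2 at 65.1 ± 12.2 and RN7SL3 at 27.3 ± 6.53 (SD, n = 3). Only reads with a unique location were counted, and the copies are near-identical, so how the reads were shared among them is uncertain.

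**Figure D2:**
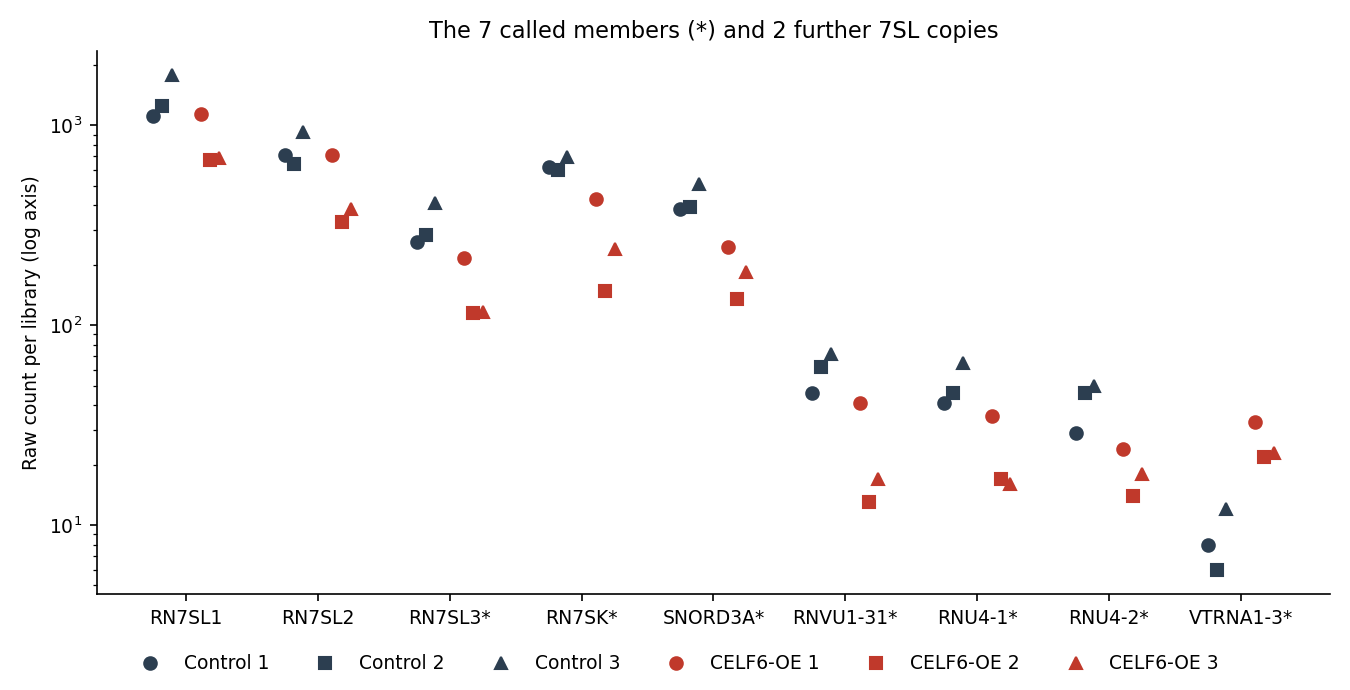
Raw counts per library on a log axis for the 7 called RNAs (asterisks) and for RN7SL1 and RN7SL2, Control in dark blue and CELF6-OE in red, with the marker shape giving the replicate number. CELF6-OE replicate 1 (red circle) is the highest CELF6-OE library for each of the 9 RNAs, and for RN7SL1 and RN7SL2 it lies among the Control libraries.

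The vault RNA was the member that rose. The VTRNA1-3 counts were 33, 22 and 23 under CELF6-OE against 8, 6 and 12 in Control, so every CELF6-OE library was above every Control library. Its level was 8.07 ± 1.89 FPKM against 2.50 ± 0.862 (SD, n = 3), a log2 fold change of 1.64 with a standard error of 0.35 (adjusted p = 0.00820). It was called under each of 15 alternative fits, with a largest adjusted p of 0.0451. It rested on 6 to 33 counts a library. Its mean count over the 6 libraries was 17.3, but its Control counts alone fell short of the limit of 10. VTRNA1-3 thus became a member only through its CELF6-OE counts. RNY1, a Y RNA bound by the Ro60 protein, had 15, 8 and 8 counts against 20, 14 and 15 and was not called (log2 fold change -0.58, adjusted p = 0.290).

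Among the 6 spliceosomal snRNA members, 3 were called lower and 0 higher, where 5.81% and 1.31% of all genes tested were called. RNVU1-31 had 41, 13 and 17 counts under CELF6-OE against 46, 62 and 72 in Control (log2 fold change -1.26, standard error 0.36, adjusted p = 0.0330). RNU4-1 had 35, 17 and 16 counts against 41, 46 and 65 (log2 fold change -1.08, standard error 0.32, adjusted p = 0.0382). RNU4-2 had 24, 14 and 18 counts against 29, 46 and 50 (log2 fold change -1.08, standard error 0.30, adjusted p = 0.0295). In each of these all CELF6-OE values lay below Control, as in 20.0% of all genes tested, and CELF6-OE replicate 1 was the highest of its group. All 3 calls were lost when CELF6-OE replicate 2 or 3 or Control replicate 2 or 3 was left out, with adjusted p from 0.0594 to 0.155, and the call of RNU4-1 also with scaling by library size only (adjusted p = 0.0505). Without CELF6-OE replicate 1 the log2 fold changes were -1.92, -1.54 and -1.30 in the same order. They were smallest at -0.96 for RNVU1-31 and -0.89 for RNU4-2 without CELF6-OE replicate 2 and at -0.85 for RNU4-1 without Control replicate 3. Only reads with a unique location were counted. RNU4-1 and RNU4-2 differ at 4 of 141 bases, so how reads were divided between them is uncertain.

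The other snRNA members did not pass the test. RNU6-8, a U6 gene, had 32, 21 and 30 counts against 27, 17 and 25 (log2 fold change 0.34, adjusted p = 0.436). RNU5A-1, of the U5 particle, which contacts the exons during splicing, had 11, 6 and 11 counts against 14, 18 and 5 (log2 fold change -0.32, adjusted p = 0.671), and its sign turned when Control replicate 2 was left out. RNU1-106P, named RNVU1-32 in GENCODE v44 and annotated there as a variant U1 snRNA gene inside the PVT1 gene, had 16, 22 and 19 counts against 10, 10 and 12, with no overlap. Its log2 fold change of 0.90 (standard error 0.30) had an adjusted p of 0.0621, while RNVU1-31, the other U1 gene among the members, fell. The signs within this class were mixed.

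Summed over members, the misc_RNA class stood at 62.0% of its Control level and the snRNA class at 66.1%, from mean CPM of 52.1 ± 19.8 against 84.1 ± 15.5 and of 3.50 ± 0.994 against 5.29 ± 0.729 (SD, n = 3). When each library in turn was left out, these shares ranged from 48.6% to 70.7% and from 55.9% to 74.4%, in both classes lowest without CELF6-OE replicate 1 and highest without CELF6-OE replicate 2. The snRNA CPM sums were 4.58, 2.63 and 3.29 in CELF6-OE and 4.59, 5.25 and 6.04 in Control, and CELF6-OE replicate 1 was again near the lowest Control library. The snoRNA class as a whole stood at 98.6%, with 36.8, 35.9 and 33.9 CPM in CELF6-OE and 33.2, 34.8 and 40.2 in Control. Without SNORD3A it was 122% of Control.

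**Figure D3:**
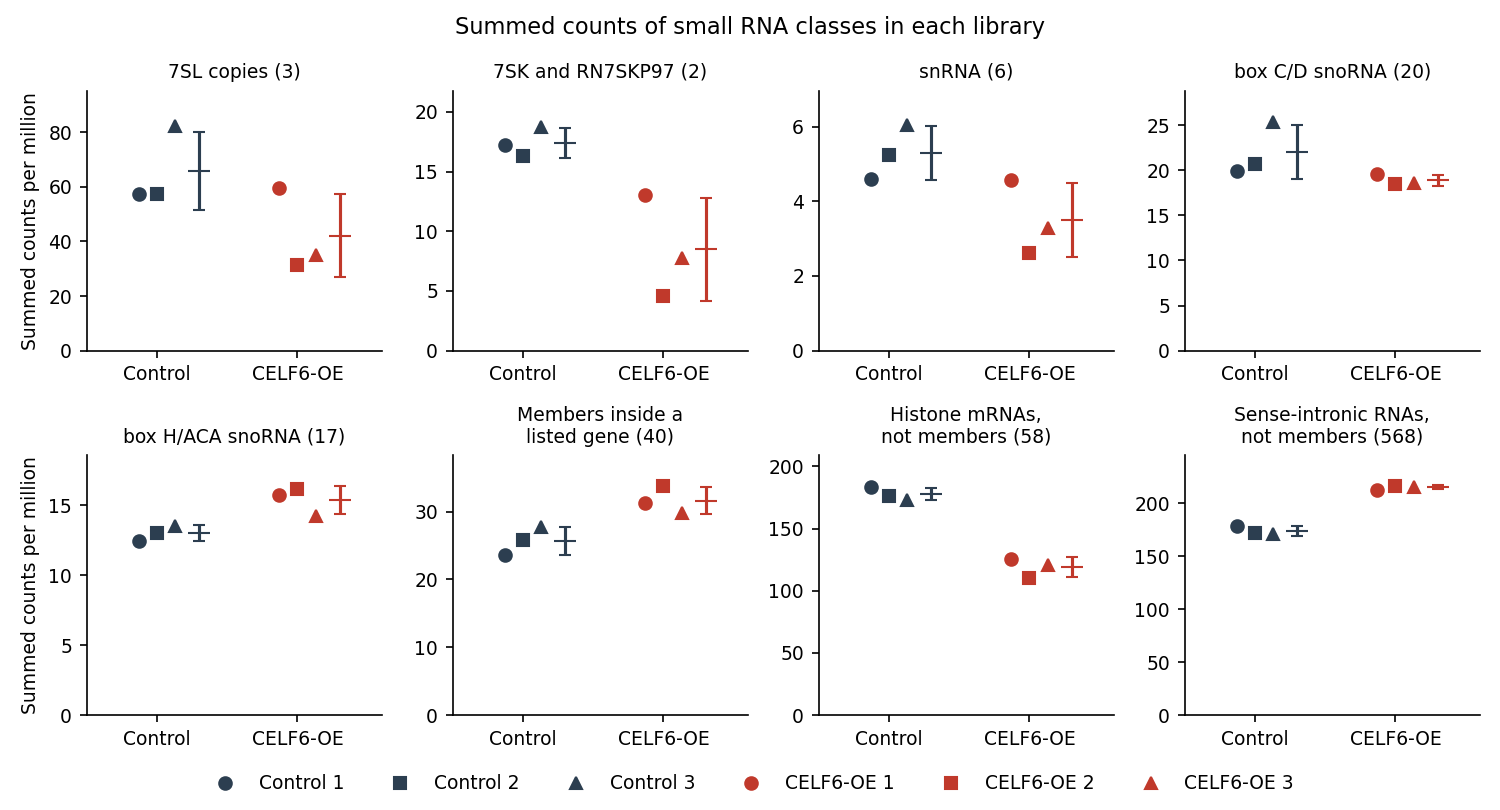
Summed CPM of each library for 6 groups of the RNAs and, for comparison, for histone mRNAs and sense-intronic RNAs, with the replicate numbers as marker shapes and the mean ± SD (n = 3) beside them. CELF6-OE replicate 1 lies near Control for 7SL and snRNA, but with the other CELF6-OE libraries for histone mRNAs (126 against 173 to 183 in Control) and for RNAs inside a listed gene.

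Other RNA classes that bear on RNA selection moved with the groups. Replication-dependent histone mRNAs also lack a poly(A) tail, and the 58 listed HIST1H and HIST2H genes summed to 126, 110 and 121 CPM in CELF6-OE and 183, 176 and 173 in Control. Here CELF6-OE replicate 1 was not near Control. The 568 listed sense-intronic genes went the other way, with 213, 216 and 215 against 179, 171 and 171. In raw counts these sums were 7381, 7662 and 7263 against 6513, 6502 and 6467. They include SNHG3, which contains SNORA73B and alone had 1419, 1414 and 1305 counts against 885, 1045 and 1087. The share of mitochondrial counts differed less, from 89105 to 100889 CPM in CELF6-OE and from 86901 to 91867 in Control. The part of RNA selection and of unspliced RNA in the differences was not tested.

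Among the snoRNAs, SNORD3A (U3) was the only member called. Its counts were 247, 136 and 185 under CELF6-OE against 382, 389 and 510 in Control, and the groups did not overlap. Its level was 7.49 ± 2.25 FPKM against 15.7 ± 2.44 (SD, n = 3), a log2 fold change of -1.10 with a standard error of 0.20 (adjusted p = 0.00357). It was called under each of 15 alternative fits, with a largest adjusted p of 0.0135 and log2 fold changes from -1.34 without CELF6-OE replicate 1 to -0.89 without CELF6-OE replicate 2. The nearly identical SNORD3B-1 had 21, 10 and 18 counts against 8, 8 and 14 and was not called (log2 fold change 0.78, adjusted p = 0.201). Reads common to both copies have no unique location, so their division between the copies is uncertain.

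The members split by where they lie. Of the 13 that lie inside no listed gene on their strand, 6 were called lower and 1 higher, where 5.81% and 1.31% of all genes tested were. Of these 13, 10 were below 0, and their median log2 fold change was -0.65. VTRNA1-3 and RN7SL2, both among the 13, lie inside lncRNA genes of GENCODE v44 that the deposited table does not list. Of the 40 inside a listed gene, 0 were called in either direction, 5 had an unadjusted p under 0.05 (12.5%, against 32.8% of all genes tested) and 36 were above 0 (90.0%, against 51.5% of all genes tested). SNORD35A and SNORD87, both among the 36, reached the count limit only through their CELF6-OE counts. Among the 13, VTRNA1-3 reached it only through its CELF6-OE counts and RNU5A-1, which was below 0, only through its Control counts. DESeq2 also called 0 of the 40. All 3 CELF6-OE CPM values lay above Control in 7 of the 40 and below in 1, where 17.9% and 20.0% of all genes tested did so. Counts were lower inside listed genes, with a median mean count of 17.3 against 36.7 in the 13. Their median log2 fold change was 0.33, and their summed CPM were 31.2, 33.7 and 29.8 in CELF6-OE and 23.6, 25.8 and 27.7 in Control, with no overlap and with CELF6-OE replicate 1 between the other 2 of its group. The 199 listed snoRNA genes below the count limit, which were not members, summed to 13.4, 12.7 and 11.6 CPM against 9.61, 10.6 and 10.7.

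By box type the medians were close to each other. Box C/D snoRNAs (20 members) had a median log2 fold change of 0.29 and 1 call, SNORD3A, and box H/ACA snoRNAs (17 members) a median of 0.32 and 0 calls. An abundant box C/D snoRNA, an H/ACA snoRNA with a positive value and the H/ACA member with the most negative value are shown. The H/ACA member with the most counts, SNORA57, had a log2 fold change of -0.13. SNORD104 (chr17:64146083-64146152, plus strand) lies in an intron of SNHG25, SNORA10 (chr16:1962334-1962466, minus strand) within RPS2, and SNORA73B (chr1:28508559-28508762, plus strand) within RCC1 and SNHG3. Capitals mark TGATGA and the last CTGA in SNORD104 and the last ACA in the others.
SNORD104: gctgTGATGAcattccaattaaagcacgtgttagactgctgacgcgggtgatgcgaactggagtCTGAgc
SNORA10: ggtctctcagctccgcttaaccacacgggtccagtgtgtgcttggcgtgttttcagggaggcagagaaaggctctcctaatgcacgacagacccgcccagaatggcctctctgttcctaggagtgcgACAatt
SNORA73B: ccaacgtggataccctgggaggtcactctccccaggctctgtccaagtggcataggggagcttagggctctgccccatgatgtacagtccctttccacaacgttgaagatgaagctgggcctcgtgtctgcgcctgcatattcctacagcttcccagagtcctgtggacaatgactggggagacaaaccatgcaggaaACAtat

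The annotated sequences carried the letters of their class. On the transcript strand, TGATGA followed by CTGA occurred in 15 of 20 box C/D members, in 0 of 17 box H/ACA members and in 13.0% of all 739 listed genes of the 4 types with a sequence. An ACA ending 3 bases before the end occurred in 13 of 17 box H/ACA members, in 0 of 20 box C/D members and in 12.3% of the 739. TGTTTG or TGTGTG, letters of the kind CELF proteins bind, occurred in 1 of the 7 called members, in 6 of the 46 others and in 10.8% of the 739, whose median length was 137 bases against 164 for the called members. The called member with a match was SNORD3A, and the match lies outside the first 217 bases shown, within the annotated 699. These matches are letters in a window and not sites of binding.

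SNORD104 stood at 30.1 ± 1.61 FPKM in CELF6-OE and at 27.3 ± 1.30 in Control (SD, n = 3). Its counts were 75, 75 and 79 against 69, 75 and 79, a log2 fold change of 0.11 with a standard error of 0.16 that did not pass the test. SNORA10, with 35, 52 and 40 counts against 25, 31 and 32, did not overlap between groups but had an adjusted p of 0.0941 (log2 fold change 0.60, standard error 0.23). SNORD86, inside NOP56, likewise did not overlap, with 63, 68 and 60 counts against 45, 57 and 48 (log2 fold change 0.42, adjusted p = 0.120). The groups overlapped for the abundant SNORA57 (86, 64 and 64 against 77, 75 and 95) and SNORA18 (62, 68 and 44 against 41, 47 and 58). SNORD17 ranged from 12 to 24 counts in CELF6-OE and from 6 to 24 in Control, with a standard error of 0.49, and its sign turned without CELF6-OE replicate 2.

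SNORA73B, an H/ACA RNA that takes part in ribosomal RNA processing, was the only member inside a listed gene whose CELF6-OE values all lay below Control. Of all genes tested, 20.0% lay below in this way. It had 26, 15 and 24 counts against 39, 34 and 35, with an adjusted p of 0.109 (log2 fold change -0.65, standard error 0.26). The genes that contain it had positive values. For RCC1, a nucleotide exchange factor for Ran, the log2 fold change was 0.31 (standard error 0.06, adjusted p = 0.00724) and for SNHG3 it was 0.53 (standard error 0.09, adjusted p = 0.00198), both under a fold change of 1.5.

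The RNAs inside listed genes were grouped by their host, the gene that contains them, or the one with the most counts where several do. This grouping and the names in this paragraph were chosen after the values were seen. The 16 members within 12 ribosomal protein genes had log2 fold changes from -0.41 for SNORD15B to 0.68 for SNORA62, 15 of them above 0. Besides these, they were SNORA6, SNORA10, SNORA33, SNORA52, SNORA64, SNORA70, SNORD4A, SNORD14A, SNORD14B, SNORD16, SNORD32A, SNORD35A, SNORD35B and SNORD68. Their median was 0.33 while that of the 12 genes themselves was 0.02. SNORD35A in this group, and SNORD87 in the SNHG group below, reached the count limit only through their CELF6-OE counts. The 5 members within TAF1D, a subunit of the RNA polymerase I factor SL1, were SNORA8, SNORA18, SNORA25, SNORA32 and SNORA40, with values from 0.30 to 0.58 against 0.13 for TAF1D. The 8 members grouped with SNHG genes (SNORA24, SNORA61, SNORD22, SNORD50B, SNORD60, SNORD87, SNORD104 and SCARNA13) had a median of 0.12, below the 0.25 of their hosts. SNORA73B (-0.65), which lies within both RCC1 and SNHG3, was grouped with RCC1 and is not among them. The other 11, grouped with as many genes, had a median of 0.36. They were SNORA57, SNORA59B, SNORA73B, SNORD17, SNORD23, SNORD86, SNORD96A, SCARNA12, RNU1-106P, RN7SKP97 and uc_338, the last of which had 17, 18 and 15 counts against 11, 11 and 9 inside EEF1B2 (log2 fold change 0.76, adjusted p = 0.107).

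Across the 40, the median difference between member and host was 0.24 on the log2 scale (SD over the 3 CELF6-OE libraries 0.11), and 32 members lay above their host. The 32 include SNORD35A and SNORD87, which reached the count limit only through their CELF6-OE counts. Fold changes of members and hosts ran against each other weakly across the 40 pairs (Pearson's r = -0.37, Spearman's rho = -0.22). Genes are not independent replicates, and some pairs have the same host. Of the 32 hosts, SNHG10 was called higher (log2 fold change 0.64, standard error 0.13, adjusted p = 0.00597), and 0 were called lower. Of all genes tested, 1.31% were called higher and 5.81% lower. SCARNA13, the small Cajal body RNA inside SNHG10, had 15, 15 and 10 counts against 12, 19 and 17 (log2 fold change -0.19, adjusted p = 0.719). None of the 40 lay in an exon of its host's canonical transcript, 9 were intronic in every annotated isoform and 31 overlapped an exon of another isoform. The median difference was 0.21 for the 9 intronic members. Counts on a member inside a host can include reads of the unspliced host or of such an isoform.

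**Figure D4:**
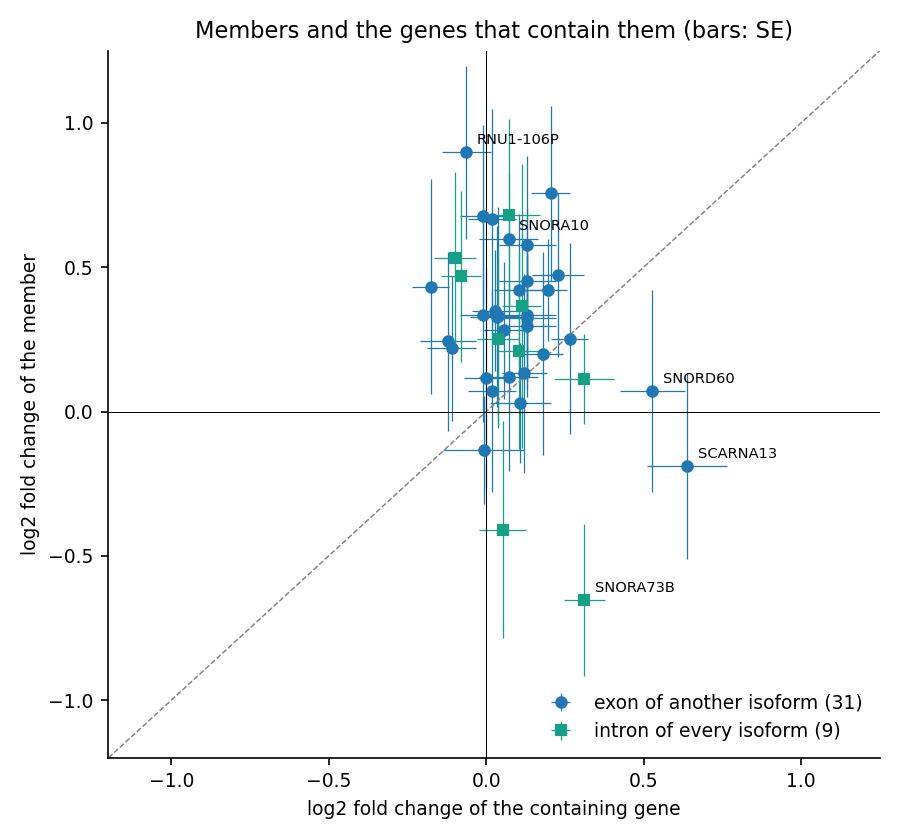
Log2 fold change of each of the 40 RNAs inside a listed gene against that of the gene containing it, with standard errors as bars and the dashed line marking equal values. Most hosts lie within a narrow band around 0 while 32 of the 40 RNAs lie above the line, and SNORA73B, SCARNA13 and SNORD60 lie below it.

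Few of the proteins that make or bind these RNAs were called, where 5.81% of all genes tested were called lower and 1.31% higher. Of 20 tested snoRNP proteins, 0 were called (median log2 fold change 0.13), among them the box C/D methyltransferase FBL (0.16, adjusted p = 0.153) and the H/ACA pseudouridine synthase DKC1 (0.25, adjusted p = 0.0237, under the fold threshold). None of 33 snRNP and assembly proteins, 20 factors of snRNA transcription and 3′ processing, 25 polymerase III subunits and factors and 21 exosome and trimming proteins was called, with medians from 0.07 to 0.11. At an unadjusted p under 0.05 there were 5, 7, 3, 4 and 2 genes in these lists in the same order, the snoRNP list first, where 32.8% of all genes tested passed that limit.

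The list of 7SK, 7SL, Y, RNase P and RNase MRP proteins had 25 tested genes, of which 1 was called lower and 0 higher, and 8 had an unadjusted p under 0.05. These shares were near those of all genes tested, 5.81% called lower and 32.8% with such a p. HEXIM2, a partner of 7SK in holding P-TEFb, had 596, 504 and 636 counts in CELF6-OE against 861, 1002 and 1019 in Control and fell by 0.65 on the log2 scale (standard error 0.11, adjusted p = 0.00266). HEXIM1 had a log2 fold change of -0.27 (adjusted p = 0.0192), under the fold threshold, while the 7SK-binding LARP7 (-0.18) and the 7SK capping enzyme MEPCE (0.21) did not pass the test. The major vault protein MVP had a log2 fold change of -0.40 (adjusted p = 0.00244), opposite in sign to VTRNA1-3 and also under the fold threshold. The signal recognition particle proteins SRP9 (0.24), SRP14 (-0.06), SRP54 (-0.04) and SRP72 (0.18) were not called.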

How the data were processed

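Poly(A)-captured RNA of 6 A549 libraries was sequenced, with groups taken from the sample labels. Per the labels, ligation products were selected by size. According to the methods, the authors used a directional kit, removed adaptors and poor bases (FASTX-Toolkit), mapped to GRCh38 by TopHat2 with up to 4 mismatches, and used uniquely placed reads for counting. How strand was handled in counting, with which tool and on which annotation, is not given in the sources used here. The deposited count table holds whole-number counts without normalization, and the deposited FPKM table holds FPKM values rounded by the authors; FPKM served only for levels per length, and log2 fold changes came from counts. No column was left out.

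The total count was 33748328 to 37920700 per library. The counts are of PCR reads without molecular identifiers, so noise expected from a single count covers counting error only. The edgeR test used the spread between the libraries of a group. Genes with a mean count of at least 10 (15762) were fitted in edgeR 4.0.16 (R 4.3.3) with TMM scaling, glmQLFit and glmQLFTest, group as the only term and a prior count of 0.125 for fold changes, and p-values were adjusted by Benjamini-Hochberg over all of them. No library was dropped or imputed. The biological coefficient of variation was 8.62%. Two-sided tests are meant throughout. The fit was tested on simulated data with known changes. Alternatives were DESeq2 1.42.0, limma-voom (limma 3.58.1), other scalings, filters, robust estimation, a replicate block and leaving out each library. No pair of libraries of a group agreed within sampling noise (chi-square per degree of freedom from 7.70 to 29.5).

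The members, gene lists and tests were chosen with earlier results of these data known. Named RNAs were those on a list of well-known small RNAs, the 5 with the most counts of each type, the called members whose groups did not overlap, those next to the count limit and their host genes. Others were named after their values were seen. GENCODE v44 held all 53 identifiers, each on its deposited chromosome, and coordinates, sequences, families and containing genes were taken from that annotation on GRCh38. FPKM divided by counts implied the v44 length within 3% for all 51 members with an FPKM of at least 1. Promoter sequences of these RNAs were not used here. The sequences of the 7SL copies are not reported here.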

Additional observations from a re-analysis of the deposited data

How the results depend on the processing

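Over the alternatives, SNORD3A and VTRNA1-3 were called in each of 15 fits, though VTRNA1-3 reached the count limit only through its CELF6-OE counts. The number called lower was 5 to 8 under other scalings, filters and tools, and 2 to 8 when 1 library was left out. It was 2 without CELF6-OE replicate 2 or 3 and 3 without Control replicate 2 or 3, so most of the calls among the abundant polymerase III RNAs and snRNAs depended on single libraries. It was 3 among members with a mean count of at least 100. The number called higher was 2 with scaling by library size only, where RNU1-106P joined VTRNA1-3 (adjusted p = 0.0493), and 0 among members with a mean count of at least 30 or at least 100. The median log2 fold change over all members ranged from 0.14 (without CELF6-OE replicate 2) to 0.37 (without Control replicate 3). Without SNORD3A the summed snoRNA CPM were 122% of Control, and without 1 library, an alternative chosen after seeing the data, 94.9% to 105%. Leaving out 1 library, the log2 fold change of RNU5A-1 ranged from -0.69 to 0.045 (without Control replicate 2), and that of SNORD17 from -0.025 (without CELF6-OE replicate 2) to 1.16. The cause was not tested. With the replicate number as a block, 8 members were called lower and 1 higher, against 6 and 1, with RN7SL1 and RN7SL2 added. The numbers did not pair the libraries, since deviations of same-numbered libraries had correlations of -0.01, -0.03 and -0.07. Of the single-gene values, 272 kept their side of the threshold and their sign, 17 lost the call, 9 gained one and 2 turned. Over all genes, the counts called higher and lower were 207 and 915, against 279 and 1158 without a filter, 170 and 826 in DESeq2, and 100 to 360 and 657 to 977 without 1 library.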

Other observations

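Several small RNA genes carry another type in the deposited table and were therefore not members. RPPH1, the RNA of RNase P, had 308, 150 and 185 counts in CELF6-OE replicates 1, 2 and 3 against 376, 399 and 479 in Control and was called lower (log2 fold change -0.89, standard error 0.22, edgeR adjusted p = 0.0189). RMRP, the RNA of RNase MRP, had 697, 201 and 333 counts against 539, 653 and 883, with CELF6-OE replicate 1 inside the Control values (log2 fold change -0.67, adjusted p = 0.202). Another gene of the 7SL family, ENSG00000280102, carries the deposited symbol RN7SL2 and the type miRNA, and had 234, 98 and 119 counts against 234, 228 and 273 (log2 fold change -0.63, adjusted p = 0.120). In all of these CELF6-OE replicate 1 was the highest of its group, as it was for RN7SK and the 7SL members.

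The telomerase RNA TERC had 19, 11 and 19 counts against 11, 9 and 17 (log2 fold change 0.48, adjusted p = 0.400). SCARNA9 (0.42) and SCARNA15 (0.25) did not pass the test. RNU11, the minor spliceosome counterpart of U1, had 2, 3 and 4 counts against 11, 7 and 5 and lay below the count limit, so it was not tested. VTRNA2-1 had 3, 11 and 1 counts against 1, 1 and 7, and was not tested either.

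Over the 95 tested sense-intronic genes, which lie in introns as many snoRNAs do, the median log2 fold change was 0.26 and 68 were above 0, against a median of 0.33 for members inside a listed gene.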
